A study of Homo sapiens with 4 samples.

Results

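Proteasome genes were examined in an RNA sequencing comparison of CFL1 knockout and control cells, both labelled as the line PANC-1, which comes from a human pancreatic ductal adenocarcinoma. Members are all genes whose symbol reads PSM, a letter from A to G and a number, which gave 48 of the 59885 genes of the authors' deposited DESeq2 table. They comprise 16 core, 22 regulatory, 3 immunoproteasome and 7 assembly genes, and 46 of the 48 have an adjusted p. The design has 2 control and 2 CFL1 knockout libraries of total RNA, all labelled with the same line, and CFL1 encodes cofilin-1, which cuts actin filaments. What the control cells carried, how the knockout was made and whether it was a clone or a pool are not given in the sources used here. No label ties the libraries to separate cultures, so p-values measure only how far these libraries spread, and that spread may be technical.

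The proteasome degrades proteins tagged with ubiquitin. Its core particle is a barrel of alpha rings and beta rings, and the proteolytic sites lie in the beta subunits PSMB5, PSMB6 and PSMB7. The regulatory particle, a base with a ring of ATPases and a lid with a deubiquitinase, recognizes, unfolds and feeds substrates into the barrel. In cells exposed to interferon, PSMB8, PSMB9 and PSMB10 replace the constitutive catalytic subunits to form the immunoproteasome, which favours peptides for antigen presentation. Dedicated chaperones assemble both particles, and the transcription factor NFE2L1 raises proteasome genes together when proteasome activity is short.

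Promoter windows from RefSeq (build GRCh38.p14, 250 bases before to 50 bases after a start) were at hand for 42 of the 48 genes, with 51 windows in all. The core of the interferon-stimulated response element, which is GAAA, any 2 bases and GAAA again, was searched on both strands, as were the other motifs, each counted on its own whether or not it overlapped another. It was found in 7 of the 51 windows (13.7%), against 3.57% of all 35116 windows. The windows with a match belonged to PSMB4, PSMB8, PSMB10, PSMA4, PSME1, PSME2 and PSMG4. The letters TGACNNNGC, the core of the antioxidant response element that NFE2L1 and NFE2L2 bind, were found in 15 of 51 windows (29.4%), against 13.3% of all windows. CCGGAAG, an ETS core, was found in 15 windows (29.4%, against 10.3%), and CCAAT in 20 windows (39.2%, against 34.6%). These matches describe letters only, and neither binding nor promoter activity was measured. Of the stretches shown, 3 show the interferon core in genes of 3 different groups whose values are compared further on, and 3 show the antioxidant core, in genes of the lid and of the beta ring. Each is printed on the gene's own strand, 5′ to 3′, with the motif in capitals and all bases before the start.
PSMB10 (chr16:67936851-67936896, minus strand): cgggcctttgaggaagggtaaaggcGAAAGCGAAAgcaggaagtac
PSME2 (chr14:24146611-24146663, minus strand): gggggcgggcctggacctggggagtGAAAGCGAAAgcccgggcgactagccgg
PSMG4 (chr6:3258889-3258946, plus strand): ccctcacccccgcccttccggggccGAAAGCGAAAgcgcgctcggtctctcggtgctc
PSMD3 (chr17:39980745-39980803, plus strand): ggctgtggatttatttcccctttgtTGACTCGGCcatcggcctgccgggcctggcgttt
PSMD12 (chr17:67366709-67366767, minus strand): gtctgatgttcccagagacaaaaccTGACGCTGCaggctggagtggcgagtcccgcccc
PSMB3 (chr17:38752612-38752670, plus strand): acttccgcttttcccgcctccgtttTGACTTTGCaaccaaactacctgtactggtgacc

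The table has no values per library, and reads per library were recovered from its base means, the mean normalized counts. The recovered reads summed to between 14016905 and 16673565 per library, and normalized counts below are these reads divided by DESeq2's size factors. The libraries are called control A, control B, knockout A and knockout B, since they could not be tied to the numbers in the labels. Control B stood apart. On the log2(normalized count + 1) scale, Pearson's r across the 46 members was 0.77 between the controls, 0.98 and 0.99 between control A and the knockouts, and 0.99 between the knockouts. Over the 11568 genes whose base mean was 100 or more, control B had an r of 0.54 with control A and of 0.52 and 0.53 with the knockouts, while the other 3 libraries had 0.975 to 0.991 with one another. Genes are not independent replicates, so these correlations only describe the libraries. The markers of the labelled line also divided the controls. KRT19, a ductal keratin, had a normalized count of 2481 in control B, 1.82 in control A and 0 in both knockouts. KRT7 had 108 in control B, 3551 in control A, and 4000 and 3683 in the knockouts. KRT7 alone of the listed line markers was lower in control B than in control A. KRT8 had 29355 in control B, 13713 in control A, and 8150 and 8049 in the knockouts. KRT18 had 22850 in control B, 11358 in control A, and 9031 and 8321 in the knockouts. VIM had 57155 in control B and 7747 in control A, and EPCAM had 42.5 and 6.36. Leukocyte markers summed to between 25.9 and 102 normalized counts per library, with LYZ at 0 in all 4. Fibroblast and endothelial markers summed to between 17.9 in control B and 554 in control A, with LUM at 0 in all 4. Most of the sum was PDGFRB except in control B. PDGFRB had 6.71 there, 513 in control A, and 439 and 451 in the knockouts. CFL1 itself had 6276 and 13761 in the controls against 2285 and 2487 in the knockouts. In the authors' deposited table its log2 fold change was -2.07 (standard error 0.454, DESeq2 adjusted p 0.00168). In a limma fit to the recovered reads of all 4 libraries the adjusted p of CFL1 was 0.721. Only 1.69% of all genes had even an unadjusted p under 0.05 in that fit. Leaving out control B gave CFL1 a difference of -1.40 on the log2 scale. Each proteasome result is therefore given against both controls and against each one. Whether all 4 libraries came from the same cells was not tested, nor was the part that the difference between the controls has in these results, and every mean of the 2 controls averages these unlike profiles.

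No proteasome gene passed the test. In 21 members both knockouts lay below both controls (21.3% of all genes did). Of these 12 were regulatory genes, such as the base scaffold gene PSMD1 and the lid genes PSMD11 and PSMD3. Regulatory genes make up 22 of the 46 tested members. Of the 46 tested members 0 had a DESeq2 adjusted p under 0.05 in the authors' deposited table, where 0.559% of all 16629 tested genes did, 0.421% lower and 0.138% higher. The lowest adjusted p was 0.201, for the alpha ring gene PSMA1. At an unadjusted p under 0.05, 8 members were lower (background 9.49%) and 0 were higher (background 3.13%). The 8 were PSMC4, PSMD8, PSMD1, PSMB2, PSMD11, PSME4, PSMD3 and PSMA1, of which 6 are among the 22 regulatory genes. With limma on all 4 libraries 0 members had an adjusted p under 0.05 and 0 an unadjusted p under 0.05 (background of the latter 1.69%). With voom both counts were 0 as well (background 1.65%).

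By library, both knockouts lay below both controls for 21 of 46 members, against 21.3% of all genes, and above both for 5, against 23.9% of all genes. For the other 20 members the groups overlapped. In the authors' deposited table the members' median log2 fold change was -0.27, and that of all tested genes -0.02. By group it was -0.12 for 14 core genes, -0.35 for 22 regulatory genes, -0.87 for the 3 immunoproteasome genes and 0.15 for the 7 assembly genes. Against control A alone the members' median was -0.09, and against control B alone it was -0.41. By group, the median against control A alone was -0.08 for core, -0.18 for regulatory, 0.50 for immunoproteasome and 0.005 for assembly genes. Against control B alone these medians were -0.24, -0.55, -1.60 and 0.32. Scaled to library totals, which moved the median of all genes to 0.16, the members' median was -0.10, with 26 members negative and 20 positive, where DESeq2's size factors gave 32 and 14. A negative log2 fold change is given to 32 of 46 members in the authors' deposited table, and to 51.5% of all tested genes. The knockouts differed from each other by at most 0.39 on the log2 scale at any tested member, and the controls by up to 4.56. In bulk RNA, fewer cells of a type and less RNA per cell cannot be told apart.

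**Figure D1:**
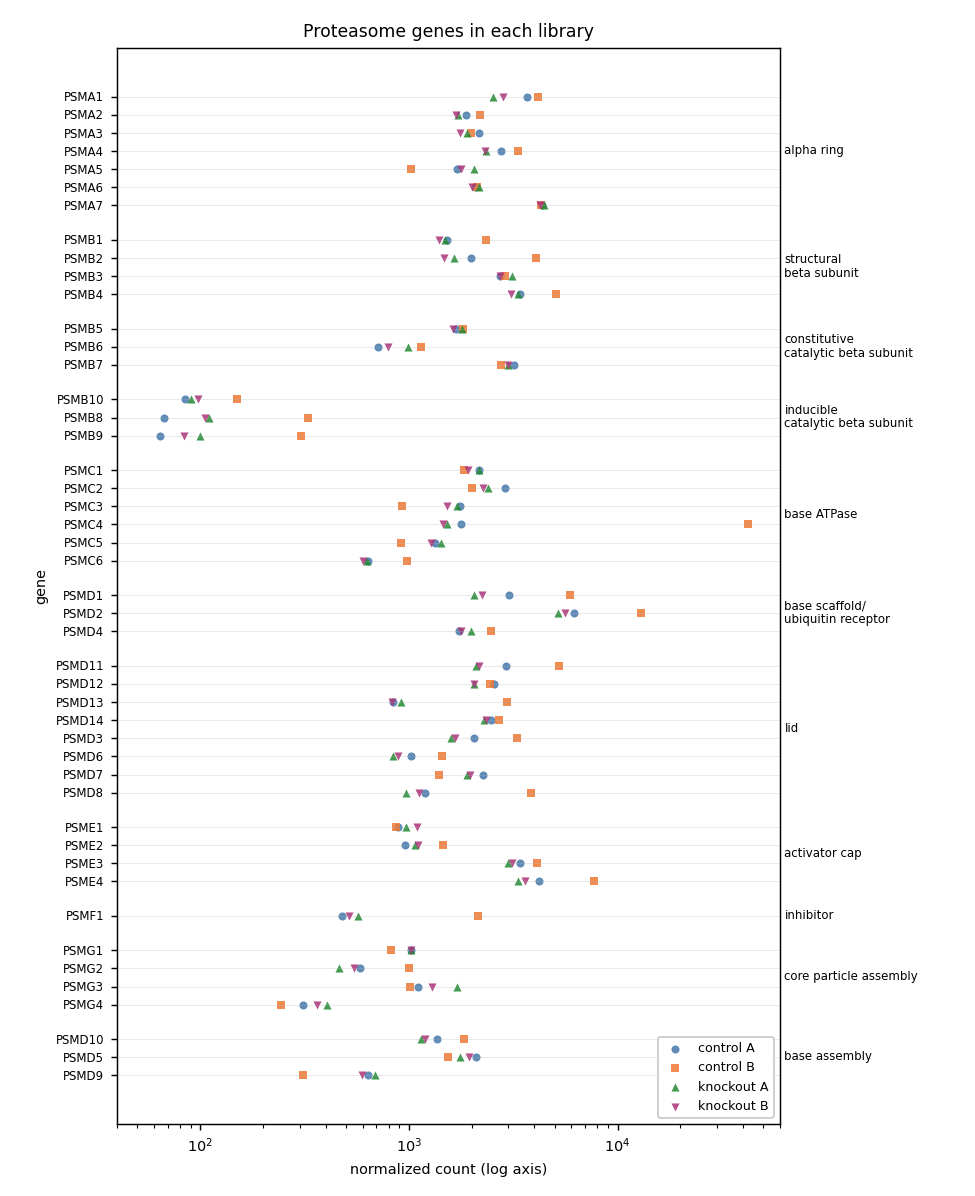
Normalized count (log axis) of each of 46 proteasome genes in the 4 libraries, ordered by role, 1 marker per library. Control B (squares) lies away from the other 3 libraries for many genes, most of all PSMC4 at 42105. The inducible catalytic subunits have the lowest counts in control A and the knockouts. In control B PSMG4 lies below PSMB8 and PSMB9.

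The alpha ring, which gates the barrel, held both the steadiest and some of the clearest differences between libraries. PSMA1 had 3663 and 4147 normalized counts in control A and control B, and 2533 and 2819 in the knockouts. Both knockouts were below both controls, whichever control is taken, and the gap between the controls was 0.18 on the log2 scale. In the authors' deposited table the log2 fold change of PSMA1 was -0.55 (standard error 0.196, unadjusted p 0.00549, DESeq2 adjusted p 0.201). PSMA2, PSMA3 and PSMA4 were below both controls as well, and the authors' deposited table has log2 fold changes of -0.25, -0.19 and -0.40.

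PSMA7 and PSMA6 hardly differed between libraries. PSMA7 had 4332 in control A and 4297 in control B, while the knockouts had 4451 and 4233, so that the groups overlapped. PSMA6 had 2083 and 2114 in the controls compared with 2162 and 2012 in the knockouts. Averaged over the knockouts, the level was within 0.05 log2 of each control for both genes, and they were the only 2 members of which this held. PSMA5 went the other way, with 1703 in control A and 1024 in control B, while the knockouts had 2056 and 1786. Its distance was 0.17 from control A and 0.90 from control B on the log2 scale, and the log2 fold change of 0.49 in the authors' deposited table was the largest rise of any tested member (standard error 0.359, DESeq2 adjusted p 0.558). PSMA8, the testis-specific alpha subunit, had no read in any library.

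The constitutive catalytic subunits did not separate the groups. PSMB5, the chymotrypsin-like subunit, had 1690 and 1817 normalized counts in the controls compared with 1790 and 1634 in the knockouts. PSMB7, the trypsin-like subunit, had 3200 and 2770 against 3001 and 2995. In both genes the knockouts overlapped the controls. PSMB6, the caspase-like subunit, had 708 in control A but 1145 in control B, and the knockouts had 996 and 798, between the controls. Their log2 fold changes in the authors' deposited table were -0.03, 0.01 and -0.05 for PSMB5, PSMB7 and PSMB6, with standard errors of 0.188, 0.190 and 0.370.

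Of the 4 structural beta subunits none passed the test, and 3 lay below both controls, where 21.3% of all genes did. PSMB2 had 1648 and 1475 in the knockouts, below 1986 in control A and far below 4073 in control B. The authors' deposited table puts its log2 fold change at -0.96 (standard error 0.435, unadjusted p 0.0281, DESeq2 adjusted p 0.339), and the differences from single controls were -0.35 and -1.38. PSMB1 and PSMB4 were below both controls by -0.08 each against control A and by -0.70 and -0.66 against control B. PSMB3, whose stretch with the antioxidant core is printed above, had 2747 in control A and 2888 in control B, while the knockouts had 3121 and 2723, which overlapped. PSMB11, the catalytic subunit of the thymus, had 1 read, in knockout A.

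Genes of the regulatory particle were more often below both controls than above them. Of the 17 genes of the base and lid, both knockouts were below both controls for 10 and above both for 0, where 21.3% and 23.9% of all genes were. The median difference of these 17 on the log2 scale was -0.19 from control A but -0.67 from control B, and in the authors' deposited table the median log2 fold change was -0.39. PSMD1, a scaffold of the base, had 3011 and 5923 in the controls compared with 2057 and 2231 in the knockouts. Both knockouts were below control A by a mean of -0.49, the largest difference downward from that library among the tested members, and below control B by -1.47. The authors' deposited table gives PSMD1 a log2 fold change of -1.06 (standard error 0.413, unadjusted p 0.0104, DESeq2 adjusted p 0.242). PSMD2, the other large scaffold, had 6152 and 13006 in the controls against 5190 and 5582. PSMD4, a ubiquitin receptor, had 1748 and 2477 against 1976 and 1779, and its groups overlapped.

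Of the 8 lid genes, 6 were below both controls and 0 above, where 21.3% and 23.9% of all genes were. PSMD11 had 2934 in control A and 5214 in control B, while the knockouts had 2104 and 2174. PSMD3 had 2046 and 3312 against 1597 and 1660. Both genes, which encode structural lid subunits, were lower than either control, by -0.46 and -0.33 against control A. In the authors' deposited table their log2 fold changes were -0.93 and -0.72, with unadjusted p of 0.0123 and 0.0332 and DESeq2 adjusted p of 0.257 and 0.354. PSMD8 had 1191 and 3848 in the controls compared with 971 and 1124 in the knockouts, a log2 fold change of -1.27 in the authors' deposited table (standard error 0.608, DESeq2 adjusted p 0.367) but -0.19 against control A. PSMD12 differed from both controls by a similar amount, with 2554 in control A and 2445 in control B, while the knockouts had 2049 and 2043. Its differences were -0.32 and -0.26, and in the authors' deposited table its DESeq2 adjusted p was 0.446. PSMD14, the lid deubiquitinase, had 2477 and 2715 against 2303 and 2351, both knockouts slightly lower. For PSMD13, 844 in control A lay between 913 and 828 in the knockouts, and only control B, at 2938, was apart. PSMD7 was lower than control A and higher than control B, with 2258 and 1399 against 1904 and 1964.

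Leaving out either control gave different pictures of these genes. Without control B, limma gave 0 members an adjusted p under 0.05, as it gave 0 of all 16532 genes. At an unadjusted p under 0.05 there were 6 lower members (PSMD1, PSMD11, PSMD3, PSMA4, PSMD12 and PSMC2; background 5.34%) and 1 higher, PSMB8 (background 8.58%). Without control A, limma gave 18 members an adjusted p under 0.05 in the lower direction (background 19.4%) and 1, PSMD7, in the higher direction (background 22.8%). In these fits the lone control is assumed to vary as the knockouts do.

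**Figure D2:**
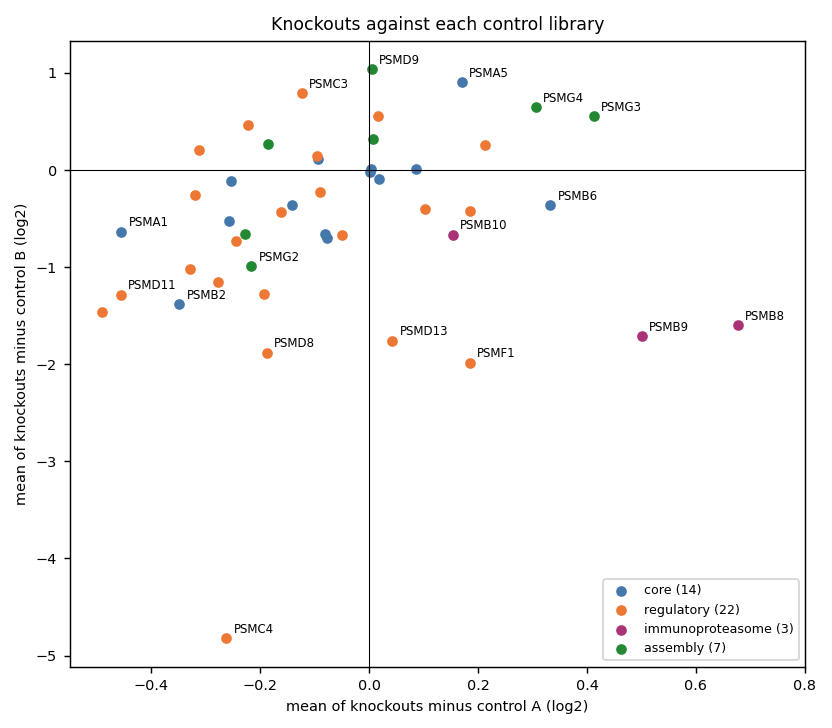
Mean of the knockouts minus control A (x axis) and minus control B (y axis), log2(normalized count + 1), 1 point per gene, coloured by group; the axes share the knockouts and differ in scale. Of the 46 genes 21 lie below 0 on both axes, 9 above 0 on both and 16 have opposite signs, among them PSMB8, PSMB9 and PSMB10.

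Among the base ATPases, PSMC4 was a case of its own. PSMC4 had 1787 normalized counts in control A but 42105 in control B, and the knockouts had 1527 and 1454. Control A and the knockouts were alike in level and control B was higher by 4.56 on the log2 scale, the largest gap between the controls at any member. The authors' deposited table gives it the lowest log2 fold change of all members, -3.88 (standard error 1.67, unadjusted p 0.0198, DESeq2 adjusted p 0.301). Against control A alone the difference was -0.26. At a base mean above 10000, as here, the recovery of reads is less certain than for the other members, all of which lie below that level.

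The other ATPases did not follow. PSMC3 had 1753 and 930 in the controls compared with 1700 and 1523 in the knockouts. PSMC5 had 1337 and 918 against 1425 and 1282. In both genes control B was the low library, and the knockouts were close to control A. PSMC1 and PSMC2 also had their lowest value in control B, at 1837 and 2010, against 2178 and 2886 in control A. PSMC6 had 637 in control A and 977 in control B, while the knockouts had 629 and 602, both lower than control A by little. Without PSMC4 the median of the ATPases was 0.02 in the authors' deposited table, and 1 of 5 lay below both controls, a share near the 21.3% of all genes.

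Genes beside PSMC4 on chromosome 19 showed the same pattern of libraries. Protein-coding genes of base mean 100 or more were put in their order along the chromosome. An unbroken run of 26 genes from SIRT2 to AKT2, PSMC4 included, was at least 2 log2 units higher in control B than in control A. Over the whole order of 10217 genes, 6.12% were. Within the run the median difference between control B and control A was 3.92, and that between the knockouts and control A was 0.15. FBL, the nearest neighbour on one side, differed by 4.29 between the controls, and AKT2, the last gene of the run, by 4.25. Beyond AKT2 the median of the next 10 genes was 0.02, and that of the 10 genes before SIRT2 was 1.68, PSMD8 being among the latter at 1.69. The run was noticed in these data and its bounds were set by the same values, so it is a description. DNA copy number was not measured, and its part in the level of PSMC4 was not tested.

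**Figure D3:**
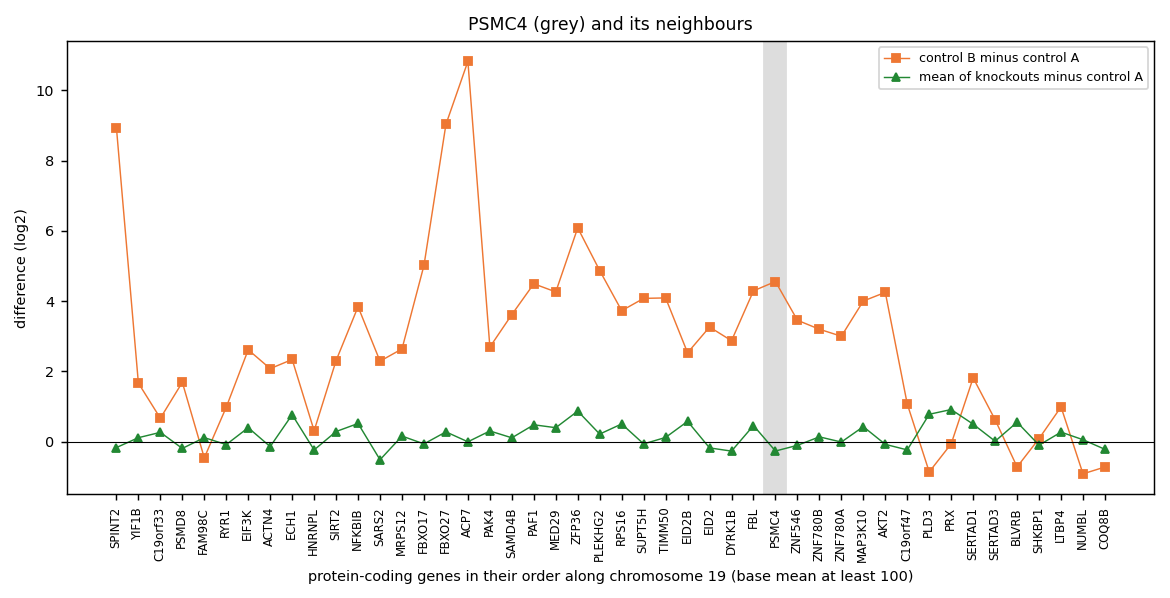
Difference on the log2(normalized count + 1) scale between control B and control A (squares) and between the mean of the knockouts and control A (triangles), for genes in their order along chromosome 19, with PSMC4 on the grey band. Squares from SIRT2 to AKT2 all lie above 2, while the triangles of the same genes lie between -0.51 and 0.87.

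The relation to neighbours extended in weaker form to the other members. For each member the difference between control B and control A was set beside the median of up to 10 neighbouring genes, 5 on each side. Pearson's r over 46 members was 0.82 (Spearman's rho 0.74), and 0.72 over the 45 without PSMC4. Over all 10217 genes in the order r was 0.28 (rho 0.38). These values are descriptions, since the points share the same pair of libraries and some members are neighbours of one another. The neighbours also passed the base mean filter that includes control B. PSMF1 on chromosome 20 was 2.17 higher in control B, with a neighbour median of 1.91, and 9 of its 10 neighbours were at least 1 log2 unit higher there. PSMD1 on chromosome 2 was 0.98 higher, with a neighbour median of 1.36. PSMD9 on chromosome 12 was lower in control B by 1.03 log2 units where its neighbours had a median of 0.07, so the likeness did not hold for every member.

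**Figure D4:**
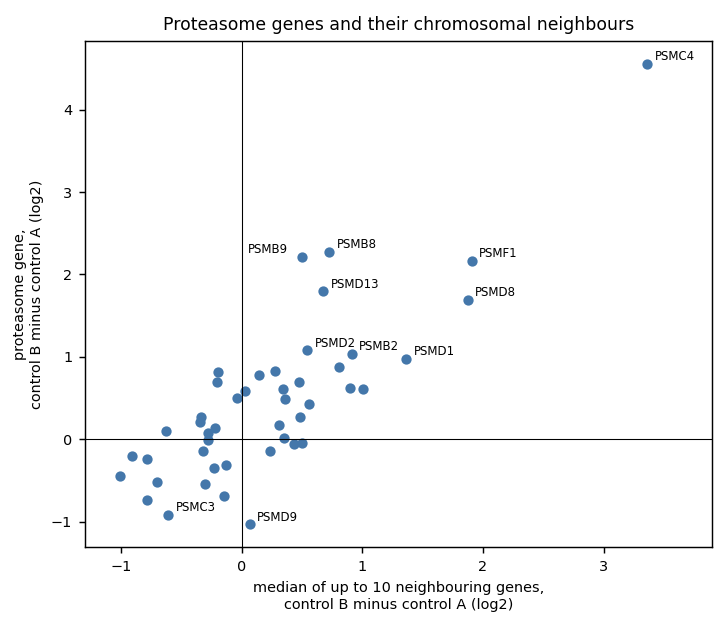
Difference between control B and control A of each proteasome gene (y axis) against the median of its neighbours on the chromosome (x axis), both log2; 46 points, labelled where the gene differed by more than 0.9. PSMC4 lies at 4.56 and 3.36, and PSMB8 and PSMB9, which neighbour each other, lie above their neighbours' medians.

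Activator caps and the inhibitor, which bind the ends of the barrel, were divided. PSME4, which encodes PA200, had 4218 and 7746 in the controls compared with 3343 and 3620 in the knockouts, below both. The authors' deposited table puts its log2 fold change at -0.78 (standard error 0.384, unadjusted p 0.0422, DESeq2 adjusted p 0.378). PSME3, the nuclear PA28 gamma subunit, had 3416 and 4129 against 2976 and 3134, also below both. The interferon-responsive subunits differed from these. PSME1 had 890 in control A and 865 in control B, while the knockouts had 967 and 1100, both of them higher, with a log2 fold change of 0.24 in the authors' deposited table (standard error 0.207, DESeq2 adjusted p 0.627). PSME2 had 960 and 1463 against 1072 and 1110, which overlapped. PSMF1, which encodes the inhibitor PI31, had 478 and 2154 in the controls compared with 569 and 519 in the knockouts. Only control B was apart there, and the log2 fold change of -1.27 in the authors' deposited table had a standard error of 0.731.

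The immunoproteasome subunits were far less abundant than their constitutive partners and were highest in control B. PSMB8 had 67.3 normalized counts in control A but 330 in control B, and the knockouts had 111 and 106. PSMB9 had 64.5 and 303 against 100 and 84.1. PSMB10 had 84.5 and 150 against 90.3 and 98.1. In all 3 genes both knockouts lay between the controls, above control A and below control B. The differences of the knockouts from control A were 0.68, 0.50 and 0.15, and from control B -1.60, -1.71 and -0.66, so the direction turned with the control. The log2 fold changes in the authors' deposited table were -0.87, -0.99 and -0.31, with standard errors of 0.859, 0.858 and 0.518 and DESeq2 adjusted p of 0.662, 0.622 and 0.795.

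A ratio within a library does not depend on how libraries are scaled. PSMB8 was 3.98% of PSMB5 in control A and 18.1% in control B, compared with 6.18% and 6.47% in the knockouts. PSMB9 was 9.11% of PSMB6 in control A and 26.5% in control B, compared with 10.04% and 10.54% in the knockouts. PSMB10 was 2.64% of PSMB7 in control A and 5.41% in control B, compared with 3.01% and 3.28% in the knockouts. The knockouts were thus close to each other and between the controls for all 3 pairs, as in the plot of inducible against constitutive subunits. The mean log2 ratio differed between knockout and control by -0.43, -0.59 and -0.27, and the two-sided exact permutation p was 1.0 for each of the 3. With 2 libraries a group that test cannot give a p below 0.33. Without control B the differences were 0.66, 0.17 and 0.25, of the opposite sign.

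**Figure D5:**
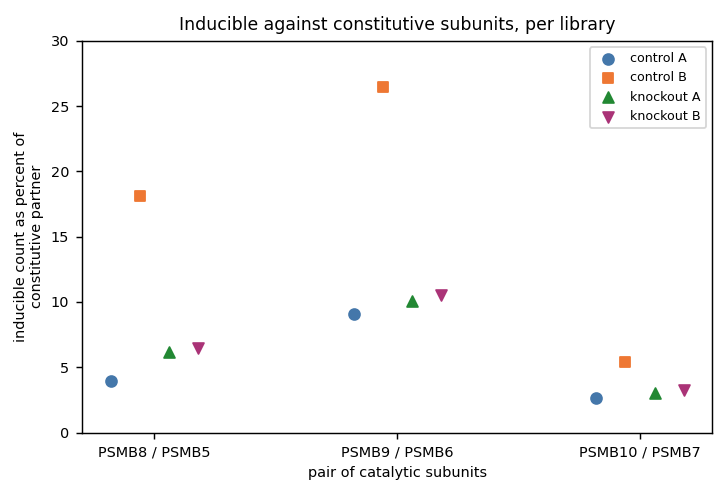
Normalized count of each inducible catalytic subunit as a percent of the constitutive subunit it replaces, 1 marker per library. Control B reaches 18.1%, 26.5% and 5.41%, and both knockouts lie between the controls in each pair.

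Genes of interferon response and antigen presentation were also highest in control B, with an exception. TAP1, which transports peptides to class I molecules, had 705 in control A but 3012 in control B, and the knockouts had 748 and 815. IRF1, a transcription factor for immunoproteasome genes, had 278 and 1814 against 279 and 306. In both the knockouts were near control A. NLRC5, a transactivator of class I genes, was lowest in control B, at 61.5, against 450 in control A and 520 and 441 in the knockouts. Of 7 genes in this list 0 had a DESeq2 adjusted p under 0.05 in the authors' deposited table (background 0.559%), and 1, IRF1, had an unadjusted p under 0.05 and was lower (background 9.49%), with a log2 fold change of -1.84 (standard error 0.857, adjusted p 0.350). The list's median difference was 0.07 from control A but -1.32 from control B.

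Among the assembly chaperones, some were higher and some lower in the knockouts. PSMG3, part of a chaperone pair for the alpha ring, had 1112 in control A and 1010 in control B, while the knockouts had 1694 and 1295. Both knockouts were higher than either control, though they differed from each other by -0.39 (knockout B minus knockout A), the widest gap between knockouts at any tested member. For PSMG3 the authors' deposited table lists a log2 fold change of 0.49 (standard error 0.261, unadjusted p 0.0583, DESeq2 adjusted p 0.415). PSMG4, the partner of PSMG3, had 311 and 245 in the controls compared with 406 and 364 in the knockouts, again both higher. The authors' deposited table puts its log2 fold change at 0.47 (standard error 0.301, DESeq2 adjusted p 0.505). Neither gene passed the test.

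PSMG1 and PSMG2 form the other chaperone pair. PSMG1 had 1019 in control A and 822 in control B, while the knockouts had 1024 and 1025, level with control A. PSMG2 had 583 and 997 against 460 and 546, below both controls.

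Chaperones of the base showed no common direction. PSMD10, or gankyrin, had 1369 and 1846 in the controls compared with 1140 and 1197 in the knockouts, below both. PSMD5 had 2099 and 1538 against 1753 and 1943, between the controls. PSMD9 had 637 in control A but 311 in control B, and the knockouts had 685 and 596, near control A. In the authors' deposited table the log2 fold changes were -0.46, 0.02 and 0.43 for PSMD10, PSMD5 and PSMD9, with DESeq2 adjusted p of 0.460, 0.973 and 0.688. POMP, which carries beta subunits into the ring and has a symbol outside the rule, had 2066 in control A and 2352 in control B, while the knockouts had 1788 and 1830, both lower. The authors' deposited table gives it -0.29 on the log2 scale (DESeq2 adjusted p 0.516).

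Levels can be compared between genes only per length of transcript, taken here as the median length of a gene's principal transcripts in GENCODE release 29. In normalized counts per kilobase, PSMA7 was the highest alpha gene in every library, from 4250 to 4469, and PSMA5 the lowest, from 275 to 551. Among the beta genes PSMB3 was highest in control A and the knockouts, from 3523 to 4038, and PSMB4 in control B, at 5285. The 3 inducible subunits lay between 59.8 and 387 over all libraries. The constitutive beta genes lay at 546 and above in each library. Among the ATPases PSMC4 was highest in control A, at 1123, and PSMC3 in the knockouts, at 1088 and 975, PSMC6 being lowest in these 3 libraries with 319 to 337. In control B PSMC4 reached 26464, and the lowest was PSMC1 at 413. Among the caps PSME3 was highest in every library, from 2982 to 4137. PSME4, whose transcript is the longest among the members, was lowest in control A and the knockouts, at 471 to 594. Among the assembly genes PSMG3 was highest of the core chaperones in all 4 libraries, from 1003 to 1682, and PSMD9 lowest of the base chaperones, from 112 to 246. The order rests on the annotated lengths, which run to 3729 bases for PSMA5 and 996 for PSMA7, and which forms these cells use was not tested.

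Other genes of the pathway were followed in a list of 26 with symbols outside the rule. Of these 0 had a DESeq2 adjusted p under 0.05 in the authors' deposited table (background 0.559%), 4 were lower (background 9.49%) and 2 higher (background 3.13%) at an unadjusted p under 0.05. USP14, a deubiquitinase that docks on the base, had 3264 and 3913 in the controls compared with 2182 and 2411 in the knockouts. Both knockouts were below both controls, with a log2 fold change of -0.64 in the authors' deposited table (standard error 0.216, unadjusted p 0.00282, DESeq2 adjusted p 0.159). RPS27A, which encodes ubiquitin fused to a ribosomal protein, had 5778 and 4760 against 9422 and 7214, higher in both knockouts. The authors' deposited table gives it 0.66 (DESeq2 adjusted p 0.258).

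The unfoldase VCP had 6169 and 21208 in the controls compared with 5459 and 5231 in the knockouts, so that control B was apart. Its cofactor NPLOC4 had 3529 and 7020 against 2346 and 2685, lower than either control. NFE2L2, a regulator of proteasome genes under oxidative stress, had 2816 and 2715 against 2242 and 2187, lower by a similar amount against both. The log2 fold changes in the authors' deposited table were -1.36, -1.07 and -0.32 for VCP, NPLOC4 and NFE2L2, with DESeq2 adjusted p of 0.337, 0.249 and 0.389. NFE2L1, the factor that raises proteasome genes when activity is short, had 2104 in control A but 7142 in control B, and the knockouts had 3311 and 3142. The knockouts lay between the controls, and the authors' deposited table gives -0.52 (standard error 0.613, DESeq2 adjusted p 0.711).

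The printed promoter stretches can be read beside these values. PSMB10, PSME2 and PSMG4 carry the same 10 letters GAAAGCGAAA before their starts. PSMB10 and PSME2 had their highest value in control B, whereas PSMG4 had its lowest there. Of the 3 genes shown with the antioxidant core, PSMD3 and PSMD12 lay below both controls and PSMB3 overlapped them. These 3 are examples from 15 genes with a match, and 21 of the 46 tested members (21.3% of all genes) lay below both controls. Other genes with a match lay below both controls (such as PSMD1), above both (PSME1 and PSMG1) or overlapped (such as PSMC5). A link between the motif and the values was not tested. Antisense genes of members had base means of 926 for PSMA3-AS1 and 612 for PSMD5-AS1 in the authors' deposited table. Whether counting used the strand is not given in the sources used here, so reads of PSMA3 and PSMD5 cannot be told apart from theirs. PSMG3-AS1, beside the chaperone gene PSMG3, had a base mean of 55.3 in that table. The most abundant pseudogene with a member's name, PSMD10P1, had a base mean of 100 in that table, against 1388 for PSMD10, and reads of near-identical copies may be divided between them.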

How the data were processed

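Total RNA of 2 control and 2 CFL1 knockout samples was sequenced, with an integrity number of 7 or more, per the labels' protocols. Cutadapt, FastQC, STAR, RSEM and hg19 are named in the submitters' processing notes, without versions or order. The file is the authors' DESeq2 table. Its base mean, a signal as the authors deposited it, averages size-factor-scaled counts over 4 libraries. The log2 fold changes, Wald scores and p-values are also as deposited by the authors, with Benjamini-Hochberg adjustment for 16629 genes.

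Reads per library were recovered here. A base mean printed to 15 digits is a sum of whole reads times 4 steps, and a gene with a single read has 1 of these steps as its base mean. Whole numbers were sought that give the base mean within its digits and, put with the deposited standard error through the equations of DESeq2, which the authors used, the deposited log2 fold change within 1e-06. Both conditions were met by 20124 genes and, with a single solution and a gap of at most 5.37e-08, by all 46 members with an adjusted p. Genes with a base mean under 1000, or with a group at 0, were also accepted on a single set of whole numbers without the fold change condition. Together this gave reads for 30681 of 30831 genes (99.5%). RSEM estimates counts, so recovered reads are its rounded estimates. Between the controls, counts differed with a chi-square per degree of freedom of 282, and between the knockouts of 6.2, so no library was a copy of another.

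Differences per library are on the log2(normalized count + 1) scale, which understates changes of low genes. Alternatives were limma 3.58.1 (R 4.3.3) with a trended prior (genes of mean normalized count 1 or more), voom, a pseudocount of 0.1, filters at a base mean of 10 and 100, an adjusted p under 0.01, adjustment without independent filtering, TMM factors, library totals, and leaving out each library. The scripts were tested on simulated data. The libraries simulated for limma took their means without control B, so they do not carry the spread between the real controls. Members and gene lists were chosen with earlier results of these data known. Values per library are given for CFL1, members with an unadjusted p under 0.05, the 3 largest rises and falls, catalytic and interferon-responsive subunits, assembly genes, the extremes per length of each role and set genes of the lists, of which 2 are not reported here. Other members are named as examples, and the run beside PSMC4 was chosen after its values were seen. The line markers, with LYZ, LUM and PDGFRB as examples of the other marker lists, were also named after their values were seen. RefSeq and GENCODE annotation of build GRCh38 gave sequences, lengths and gene order, matched by symbol. Other tools were numpy 2.4.6, pandas 2.3.3 and matplotlib 3.10.9 under Python 3.11.15.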

Additional observations from a re-analysis of the deposited data

How the results depend on the processing

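The count of 0 called members held for the authors' test without independent filtering and at an adjusted p under 0.01. It also held for that test with base means of at least 10 or 100. Limma with either pseudocount and voom gave 0 as well, but these fits of 4 libraries decide little. In them only 1.69% (limma, pseudocount 1) and 1.65% (voom) of all genes had even an unadjusted p under 0.05. Leaving out a library in turn gave 0 to 19 of 46 members and 0 to 14 of 26 partner genes with limma, the 19 and 14 without control A, where 42.2% of all genes were called. The members' median log2 fold change was -0.10 with library totals and ranged from -0.41 (without control A) to -0.092 (without control B) when single libraries were left out. Members with the knockouts above the controls numbered 5 to 13 and those below 21 to 30 when single libraries were left out, 13 and 30 without control A. Of all genes 30.3% to 47.2% lay above and 27.3% to 46.1% below in these settings, since fewer libraries separate more easily. The log2 ratios ranged from -1.51 to 0.66 for PSMB8 to PSMB5, from -1.35 to 0.17 for PSMB9 to PSMB6 and from -0.78 to 0.25 for PSMB10 to PSMB7, the highest being without control B. CFL1 had a log2 fold change of -1.96 with limma at both pseudocounts (adjusted p 0.721 and 0.726), and -2.53 (without control A) to -1.40 (without control B) with single libraries left out. These limma fits differ from the authors' test in the test too. Without knockout A or B the log2 fold change of CFL1 was -1.90 and -2.02. A limma fit with 1 library in a group takes its spread from the other group alone, so whether it calls CFL1 decides little about the loss. No paired analysis was possible because the recovered libraries could not be tied to the replicate numbers in the labels. With 2 libraries a group, small differences in single proteasome genes cannot be told from the spread, and the lowest base mean among the members with an adjusted p was 106, for PSMB10.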
